A study of Mus musculus with 2 samples.

Results

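The genes of the Toll-like receptors were examined in dendritic cells grown from mouse bone marrow and treated with lipopolysaccharide (LPS), with and without the microRNA miR-155. The members are the 10 genes Tlr1 to Tlr9 and Tlr13. They were taken as all probe sets that the platform annotation assigns to 1 of these symbols only, which gave 16 of the 45101 probe sets on the array. Of the 10 genes, 9 were measured; Tlr5 lay below the floor described below on both arrays. The first sample was of wild type C57BL/6J mice and the second of miR-155-/- mice of the same strain, each represented by 1 Affymetrix array. Both had 7 days of culture with 20 ng/ml GM-CSF, a growth factor that turns marrow precursors into dendritic cells, and then received 10 ng/ml LPS. The sources used here do not give the duration of LPS treatment or how many mice each sample came from, and no untreated cells were analysed here, so the response of these genes to LPS itself was not measured.

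Toll-like receptors are membrane proteins that recognise molecules of microbes through an ectodomain of leucine-rich repeats and signal through a cytoplasmic TIR domain. Some sit at the cell surface and bind lipids and proteins of microbes, and others sit in endosomes and bind nucleic acids. In dendritic cells their signals start cytokine production and maturation. miR-155 is itself induced by Toll-like receptor signals and represses transcripts that pair with its seed. The RNA that the knockout lacks has a 5p and a 3p mature strand in the RefSeq table (GRCm38.p6). The 5p strand is given here, with the seed, bases 2 to 8, in capitals.
mmu-miR-155-5p: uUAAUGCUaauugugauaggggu
Its host transcript Mir155hg gave a normalized signal of 1136 with miR-155 and of 159 without it, 7.13-fold lower. The sources used here do not say whether this probe set covers the deleted part.

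Because each genotype has 1 array, no replicate spread and no test exist, and each difference describes these arrays. Deposited signals were brighter overall on the knockout array, with a median of 78.3 against 58.4, and the 18S ribosomal RNA control probe sets read 389.2 to 581.9 there against 95.1 to 126.1 in wild type. The part of this in the results was not tested. Signals below are quantile normalized, which gives both arrays 1 distribution, so a difference is relative to the bulk of genes. Differences are log2 ratios of the knockout signal to the wild type signal. Values under an intensity of 67.6, the median of all values, were set to that floor. The only error that the arrays hold is the disagreement between probe sets of 1 gene, with an SD of 0.29 on the log2 scale (11653 probe sets of 4410 genes). It holds no variation between mice or cultures. By signal level this SD was 0.35 for dim, 0.29 for middle and 0.23 for bright probe sets. The value over all of them is used below, whatever the level of a gene. In cultures measured in bulk, fewer cells of a type and less RNA per cell cannot be told apart.

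Toll-like receptor transcripts were nearly balanced between the genotypes. None of the 9 measured genes was at least 2-fold different, against 1.19% of the 11878 measured genes. Tlr13 was the only one at least 1.5-fold higher (4.57% of measured genes were) and none was at least 1.5-fold lower (4.1% were). Of the 9 genes, 4 were higher and 5 lower in the knockout, beside 51.5% and 48.5% of measured genes. Their median difference was -0.02, beside 0.01 over all measured genes, and 6 of the 9 lay within 1 probe set SD of 0, as did 67.3% of measured genes.

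**Figure D1:**
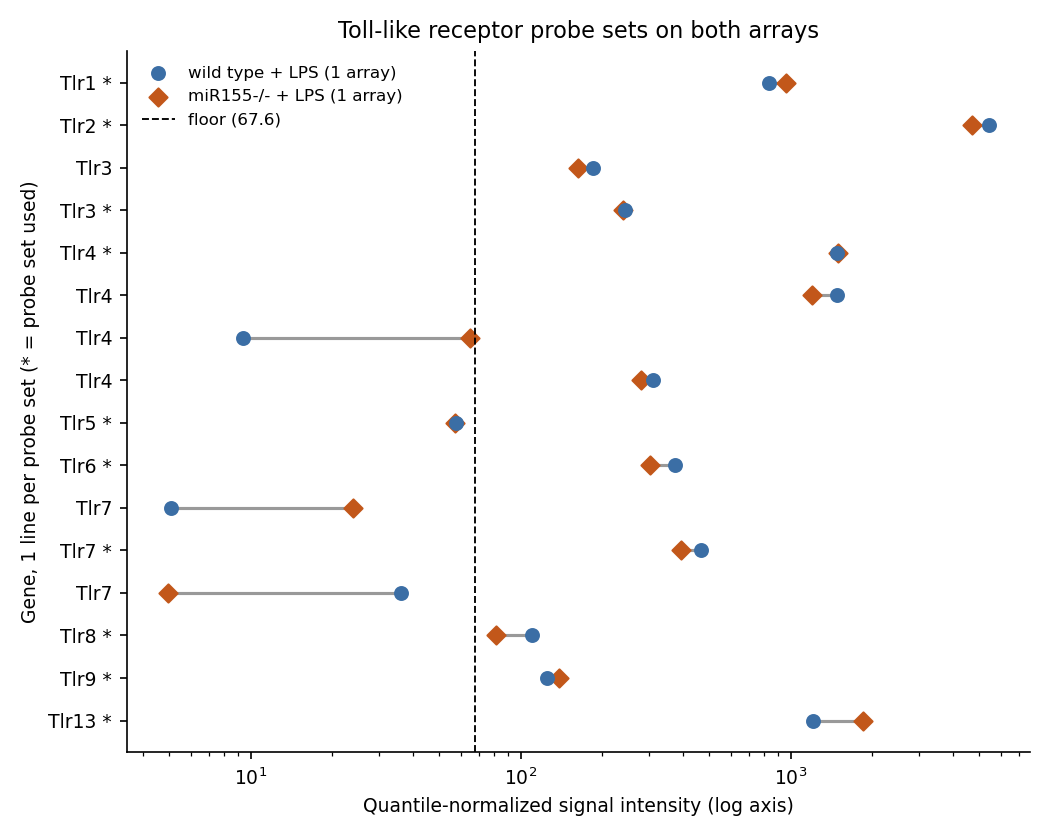
Quantile-normalized signal (log axis) of each of the 16 Toll-like receptor probe sets for wild type (circles) and knockout (diamonds), with the floor of 67.6 as a dashed line and the probe set used for each gene starred. The widest pairs all lie below the floor, and above it Tlr13 has the widest pair with the knockout higher; levels of different probe sets are not comparable with each other.

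Tlr13, an endosomal receptor of mouse cells that recognises bacterial ribosomal RNA, had the highest difference of the family. Its single probe set gave a normalized signal of 1213 for wild type cells and 1851 for the knockout, and deposited signals of 985.1 and 2275. The knockout was 1.53-fold higher, a difference of 0.61, or 2.07 times the probe set SD. A higher difference was found in 4.02% of all measured genes, and in 1.8% of the 500 measured genes nearest to Tlr13 in mean signal. The difference was positive under each of 5 ways of scaling the arrays, from 0.61 to 1.21. It lay 0.60 to 0.67 above the median of all measured genes under the same scaling. Some of these scalings only shift a whole array by a constant, which subtraction of the median largely removes. The likeness of such relative values is therefore mostly built in, and they are not 5 separate checks. On the deposited values it came to 1.21 and thus passed 2-fold, as did 7.09% of genes in that direction.

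Tlr8, an endosomal receptor related to Tlr7 and encoded next to it on the X chromosome, had the lowest difference. It read 110.7 in wild type cells and 81.3 in the knockout, 1.36-fold lower (-0.44), or 1.51 times the probe set SD. Both values lay close to the floor, where differences are wide: 16.6% of the 500 genes nearest in mean signal had a lower difference, against 7.81% of all measured genes. On the deposited values Tlr8 read 93.4 and 95.2, a difference of 0.03, while the median gene was 0.54 higher in the knockout. Set against that median it was lower under all 5 scalings, at -0.53 to -0.45, which as for Tlr13 are not 5 separate checks.

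The other endosomal receptors had differences smaller than the probe set SD. Tlr7, which binds single-stranded RNA, read 465.7 and 392.2 (-0.25). Its other 2 probe sets lay below the floor on both arrays. Tlr3, the receptor for double-stranded RNA, read 243.0 and 239.3 at the probe set used (-0.02) and 185.3 and 162.8 at the other one (-0.19). The negative sign of Tlr3 and Tlr7 depended on the scaling: Tlr3 was positive under 3 of 5 scalings and Tlr7 under 2 of 5. Relative to the median gene, Tlr7 lay lower throughout (-0.26 to -0.20) and Tlr3 lay at -0.03 to 0.00. Tlr9, which binds unmethylated CpG DNA, read 125.1 and 139.0 (0.15). It was positive under all 5 scalings, but the median gene was lowest under the main one, so this sign could hardly change. Set against the median gene, Tlr9 lay 0.10 to 0.14 higher. The median of the 5 endosomal receptors was -0.02, with values spread from -0.44 to 0.61.

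Among the receptors of the cell surface, Tlr4, which senses LPS itself, read 1486 for wild type and 1498 for the knockout at its brightest probe set, a difference of 0.01. A second probe set of similar brightness read 1491 and 1203 (-0.31), and the third 310.3 and 280.3 (-0.15), so the sign for Tlr4 depended on the probe set. The fourth lay below the floor on both arrays. Averaged over its measured probe sets, Tlr4 differed by -0.15. Under the main scaling Tlr4 values therefore lay between no difference and one of about 1 probe set SD. At the brightest probe set the 5 scalings gave 0.01 to 0.62, which is 0.00 to 0.08 above the median gene.

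Tlr2 works as a pair with Tlr1 for triacylated lipopeptides and with Tlr6 for diacylated ones. Tlr2 was bright on both arrays, at 5420 for wild type and 4704 for the knockout (-0.20). Tlr1 read 829.0 and 959.2 (0.21). Tlr6, the neighbour of Tlr1 on chromosome 5, read 372.5 and 302.2 (-0.30). Tlr1 was positive under all 5 scalings, but the median gene was lowest under the main one, so this sign could hardly change. Set against the median gene, Tlr1 lay 0.20 to 0.27 higher. Tlr2 and Tlr6 were positive on the deposited values (0.32 and 0.28), where all 9 measured members and 92.9% of genes were higher. They were negative under the other 4 scalings. Against the median gene both were lower under all 5, at -0.24 to -0.21 for Tlr2 and -0.32 to -0.26 for Tlr6. These are again not 5 separate checks. Tlr5, the flagellin receptor, read 57.6 and 57.3, below the floor, so no difference is given. The median of the 4 measured surface receptors was -0.10, from -0.30 to 0.21.

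**Figure D2:**
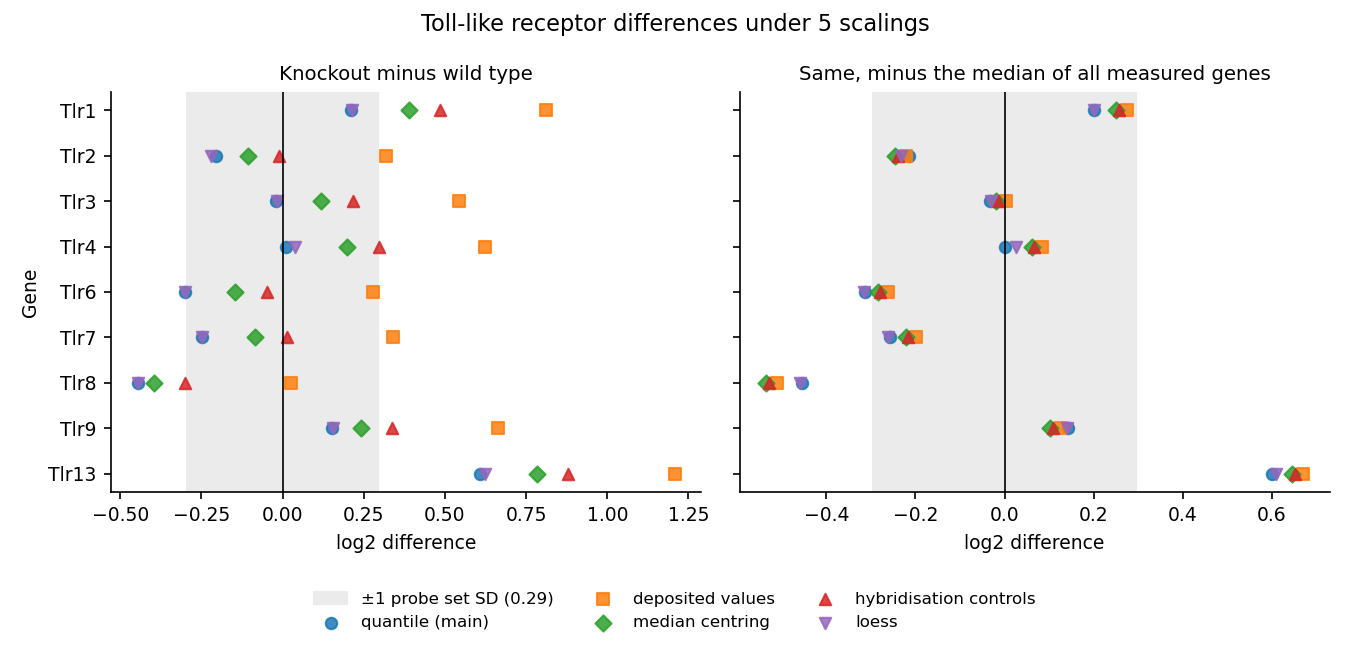
Log2 differences of the 9 measured Toll-like receptor genes, knockout minus wild type, under 5 scalings (symbols), as such on the left and after subtraction of the median of all measured genes on the right; the grey band is 1 probe set SD of 0.29 to either side. On the left the symbols of a gene are spread by the shift between the arrays. On the right they fall together, largely by construction, since subtracting the median removes a constant shift. There Tlr13 lies above and Tlr8 below the band, with Tlr6 at its lower edge (-0.32 to -0.26).

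A gap between the differences of 2 genes removes a shift between the arrays that both genes share. The gap between Tlr1 and Tlr6 was 0.51 (0.54 on the deposited values), or 1.23 times 0.42, the SD that a gap between 2 probe sets of the same gene has. The gap between Tlr1 and Tlr2 was 0.41, and that between Tlr2 and Tlr6 0.10. The partners of Tlr2 thus differed from each other by little more than probe sets of 1 gene do. Between the neighbours Tlr7 and Tlr8 the gap was 0.20, under that SD. Among the 36 pairs of the 9 genes the median gap was 0.33. Gaps above 0.83, which is 2 such SDs, were found only in pairs that hold Tlr13. The share of such gaps among pairs of all measured genes was not computed. The widest gap in the family was that of Tlr13 and Tlr8, at 1.05 (1.18 on the deposited values). Tlr13 and Tlr7 were 0.86 apart, and Tlr13 and Tlr1 0.40.

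**Figure D3:**
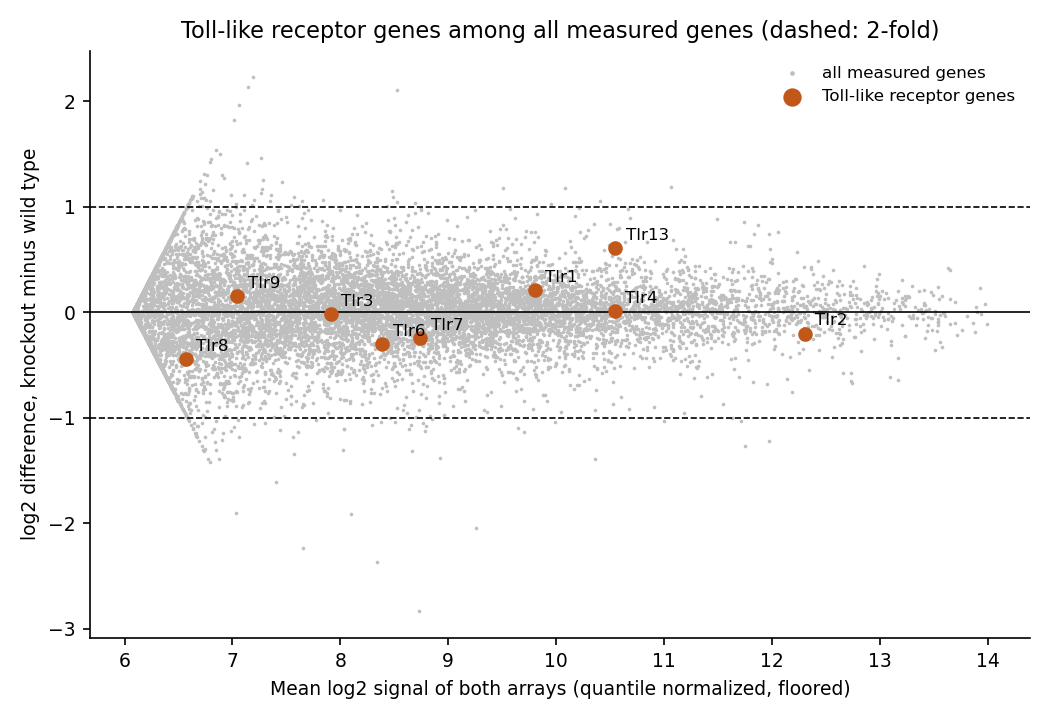
Difference between knockout and wild type (log2, vertical) against the mean log2 signal of both arrays (horizontal) for all 11878 measured genes in grey, with the 9 measured Toll-like receptor genes labelled and the 2-fold limits dashed. All 9 lie inside the limits; Tlr13 (0.61) lies at the upper edge of genes of like signal, and Tlr8 (-0.44) lies among dim genes whose differences spread widely.

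The windows of 250 bases before the gene start, from the RefSeq promoter table (GRCm38.p6), are shown for the genes at the ends of the range, Tlr13 and Tlr8, and for Tlr2. Capitals mark matches on either strand to 4 motifs: GAGGAA (the core bound by PU.1, a myeloid transcription factor), TGANTCA (AP-1), 2 copies of GAAA set 2 bases apart (interferon response) and the NF-kB consensus.
Tlr13 (chrX:106143025-106143274, plus strand): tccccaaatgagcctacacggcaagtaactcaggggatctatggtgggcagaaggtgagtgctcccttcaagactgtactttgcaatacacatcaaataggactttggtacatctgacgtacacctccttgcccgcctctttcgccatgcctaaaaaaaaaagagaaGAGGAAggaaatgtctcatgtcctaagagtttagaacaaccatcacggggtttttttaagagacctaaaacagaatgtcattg
Tlr8 (chrX:167264330-167264579, minus strand): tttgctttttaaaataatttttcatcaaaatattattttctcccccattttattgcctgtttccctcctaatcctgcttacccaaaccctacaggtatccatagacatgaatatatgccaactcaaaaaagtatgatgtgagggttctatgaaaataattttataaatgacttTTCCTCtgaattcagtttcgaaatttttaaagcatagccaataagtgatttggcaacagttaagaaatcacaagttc
Tlr2 (chr3:83841609-83841858, minus strand): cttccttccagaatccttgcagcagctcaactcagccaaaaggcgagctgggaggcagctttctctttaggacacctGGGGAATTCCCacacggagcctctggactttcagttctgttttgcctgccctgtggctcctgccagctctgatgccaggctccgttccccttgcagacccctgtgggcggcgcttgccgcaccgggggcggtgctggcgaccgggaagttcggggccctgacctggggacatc
Entries were found for 8 of the 10 members, with 10 windows in all; Tlr4 and Tlr7 are named only. GAGGAA was present before Tlr1, Tlr8, Tlr9 and Tlr13, that is in 4 of 10 windows, against 23.3% of 32851 windows in the table. Tlr13 and Tlr8, with the highest and the lowest difference, both held it, 83 and 77 bases before the start at its far end. The NF-kB consensus was found before Tlr2, in 2 overlapping matches, and before Tlr3 (3.90% of all windows). TGANTCA was found only before Tlr9 among these windows (6.75% of all) and the paired GAAA only before Tlr6, in 2 overlapping matches (2.98% of all). These are matches of letters, and no binding was measured.

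The other genes of the pathway also lay on both sides of 0. In 6 lists 49 genes were measured, 23 of them higher and 26 lower in the knockout; their median was -0.03 and 1 was at least 2-fold different. Among 7 co-receptors and ligand carriers, 4 were higher and 3 lower; the median of 0.30 was -0.24 with a higher floor. The LPS co-receptor gene Cd14 read 10690 and 7911 (-0.43) and Ly96, which encodes the MD-2 protein that binds LPS with Tlr4, 660.9 and 559.3 (-0.24). Ly86, which encodes the MD-1 partner of the Toll-like receptor homologue Cd180, was 1.54-fold lower (619.3 against 402.1), whereas Cd180 itself read 256.9 and 338.9 (0.40).

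Of 10 genes for chaperones, trafficking and receptor processing, 6 were higher and 4 lower; their median was 0.04, with none at least 1.5-fold different. Unc93b1, which carries the endosomal receptors out of the endoplasmic reticulum, read 2918 and 2366 (-0.30). Of 5 adaptors 1 was higher and 4 lower, with a median of -0.22. Myd88, used by all the members except Tlr3, had a difference of -0.22 (2748 against 2364). Tirap, which bridges Tlr2 and Tlr4 to it, had one of 0.20 with 2 of 2 probe sets higher, and Ticam1, the adaptor of Tlr3 and of endosomal Tlr4, one of -0.06. Sarm1 exceeded the floor on the wild type array alone (117.4) and was thus at least 1.74-fold lower. Ticam2, Irak4, Traf3, Il1rl1 and Nod2 are not analysed here.

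Of 9 kinases and ubiquitin ligases of the Myddosome pathway, which relays the signal from Myd88, 5 were higher and 4 lower. Their median was 0.13, or -0.02 with probe sets averaged, and none was at least 1.5-fold different. Peli1, counted as higher (0.40), had 3 of its 4 measured probe sets lower. Of 9 negative regulators 5 were higher and 4 lower; their median of 0.04 was -0.16 with probe sets averaged and -0.32 with the dimmest measured ones. Sigirr, an inhibitory receptor with a TIR domain, was 1.69-fold lower (170.3 against 100.7). Inpp5d, the gene of the lipid phosphatase SHIP1 which miR-155 is reported to repress, gave a 1.52-fold higher signal at the brighter probe set, but its other one had a difference of -0.32. Of 9 sensors of other families, 2 were higher and 7 lower (median -0.13); Aim2, a sensor of cytosolic DNA, exceeded the floor on the knockout array alone (196.6) and was thus at least 2.91-fold higher.

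**Figure D4:**
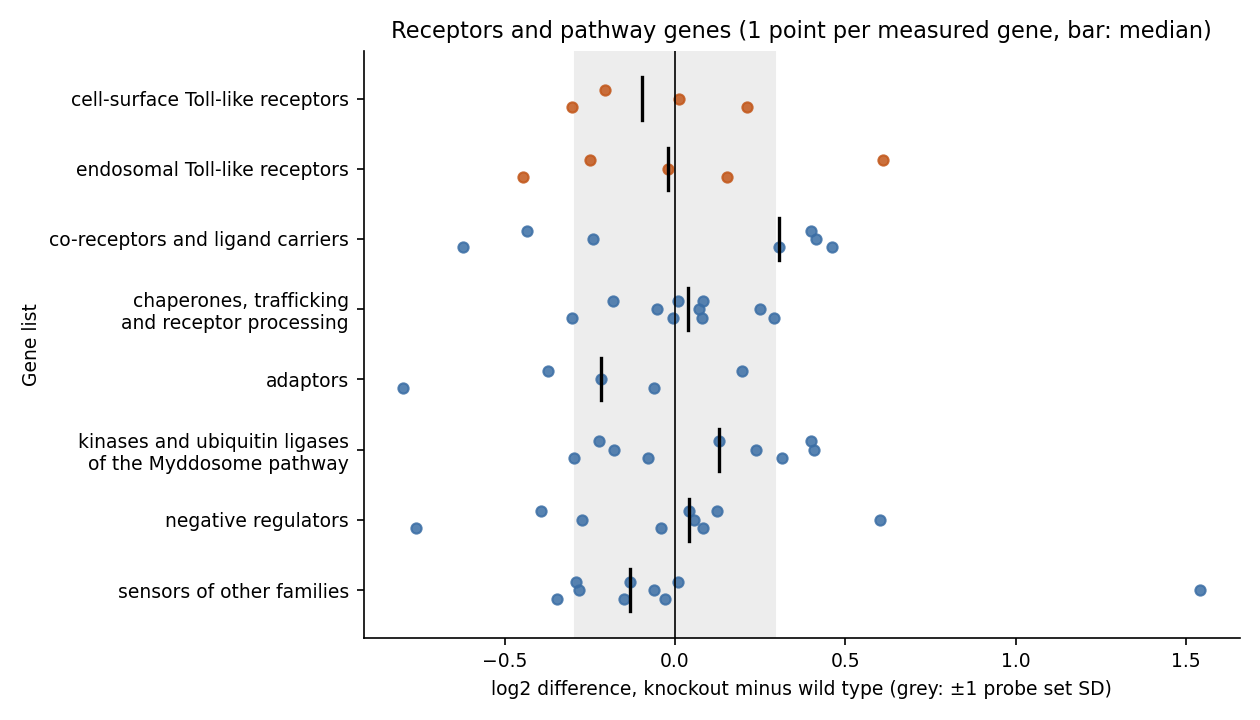
Differences between knockout and wild type (log2) of the measured genes of the 2 receptor groups (orange) and of 6 lists of pathway genes (blue), 1 point per gene, with the list median as a bar and 1 probe set SD of 0.29 to either side of 0 in grey. Every list has points on both sides of 0, and 1 point, Aim2 at 1.54 (a lower bound), lies beyond 2-fold.

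The labels call the cells dendritic cells, while the growth protocol names macrophages. Of 8 dendritic cell markers all were measured, but Flt3 was above the floor only in the knockout. Itgax (4290 and 5331) and Flt3 were higher, and the other 6, with Cd74 and H2-Ab1 among them, were lower. The median of the 8 was -0.12. It was -0.01 with the dimmest measured probe sets and 0.34 on the deposited values, where the median gene was 0.54 higher. The lowest differences were those of Ccr7 (6287 and 4304) and Zbtb46 (187.8 and 139.8). The signals of the 8 markers summed to 28286 for wild type and 26248 for the knockout. Macrophage and monocyte markers were also bright, such as Csf1r (9826 and 11268) and Adgre1. Of the 6 measured 5 were higher, with a median of 0.21 and sums of 24647 and 27791. Mrc1 was 2.08-fold and Mertk 1.75-fold higher, whereas Fcgr1 was lower (-0.24). All 5 measured plasmacytoid dendritic cell markers, of a cell type known for Tlr7 and Tlr9, were lower (median -0.40, sums of 5890 and 5310). Their median was -0.17 with the dimmest measured probe sets and 0.18 on the deposited values. Bst2 alone made up most of their sums (4969 and 4686). The defining markers of this cell type, Siglech and Ccr9, lay below the floor on both arrays. All 5 measured B and plasma cell markers were lower (median -1.91, sums of 1621 and 437.7), 3 of them passing the floor on the wild type array alone, with Cd79a below it on both arrays. That median was -0.74 with probe sets of a gene averaged, -0.55 with the dimmest measured probe set and -0.98 with the floor at the 75th percentile, and 3 of the 8 probe sets of Ighm were higher. Of 6 granulocyte markers 2 were higher and 4 lower (median -0.37, sums of 10204 and 12368); the median was -0.02 with the floor at the 75th percentile and 0.16 on the deposited values. The part of these cell types in the receptor values was not tested.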

How the data were processed

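Per the labels' protocols, 6 ug of total RNA were turned into biotinylated cRNA by Affymetrix's standard method. The authors deposited linear signal intensities for 45101 probe sets on each of 2 arrays; algorithm, scaling and detection calls were not given in the sources used here. Array medians differed by 34.1%, above the limit of 10% set for this step, so after removal of 64 controls the log2 intensities of 45037 probe sets were quantile normalized and values under the 50th percentile set to it. A gene with a value above this floor on at least 1 array counted as measured, and a gene with a value at the floor on the other array has only a lower bound. Genes with several probe sets were represented by the one with the highest mean. Names came from the platform annotation (34945 probe sets with 1 gene, 932 with several, 9160 unnamed here), updated through the reference gene table (GRCm38.p6), which holds 18032 of 18193 genes. The processing was also run on simulated data with planted differences, a uniform shift and the same noise at every signal level. Such data are simpler than the real arrays, and scaling on hybridisation controls was not simulated. Loess used a span of 0.4, and 18 hybridisation controls served as an alternative scale. Python 3.11.15, numpy 2.4.6, pandas 2.3.3 and statsmodels 0.14.6 were used.

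The members and the lists (co-receptors, trafficking, adaptors, kinases and ubiquitin ligases, negative regulators, sensors of other families and markers of 5 cell types) were chosen with earlier results of these data known. Named were all members, 7 co-receptors, adaptors and carriers whatever their values, and, in each pathway list, up to 4 genes per direction that were at least 1.5-fold different; Cd180, Cd79a, Flt3, Ighm and the other markers named outside this rule were chosen after their values were seen. The number of arrays limits the precision.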

Additional observations from a re-analysis of the deposited data

How the results depend on the processing

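The results were recomputed under 10 alternatives of scaling, floor and probe set choice. With no scaling, the median difference of Toll-like receptor genes was 0.54, the number at least 2-fold different was 1 (Tlr13) and the number lower in the knockout was 0; with scaling on hybridisation controls the number lower was 3. The first shift is that of the median gene (0.54). Under all other alternatives the median ranged from -0.19 to 0.22 and none was at least 2-fold different. Among members, Tlr13 ranged from 0.61 to 1.21, Tlr1 from 0.21 to 0.81 and Tlr9 from 0.15 to 0.66, all positive. The other scalings mostly raised values, so a positive sign could hardly change. Tlr2 (-0.22 to 0.32), Tlr3 (-0.19 to 0.54), Tlr4 (-0.15 to 0.62), Tlr6 (-0.30 to 0.28), Tlr7 (-0.25 to 0.34) and Tlr8 (-0.45 to 0.03) had both signs. Medians of co-receptors, negative regulators, B and plasma cell markers and granulocyte markers moved with the floor or the probe set choice, as given beside them. No paired analysis was possible because there is 1 array per genotype. Signal near the floor limits Tlr5, Tlr8 and Tlr9.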

Other observations

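Of the member probe sets below the floor, that of Tlr5 read alike on both arrays, and those of Tlr4 and Tlr7 differed without a common direction. A probe set of Tlr4 had deposited signals of 8.51 for wild type and 75.4 for the knockout. Those of Tlr7 read 4.63 and 26.2 at one probe set and 32.1 and 5.39 at the other, opposite in direction. Tlr12, a further mouse receptor of the family, read 62.4 and 11.0 after normalization at its brighter probe set, also below the floor. No difference is drawn from any of these values.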
